A study of Mus musculus with 16 samples.

Results

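The Bcl-2 family genes Mcl1, Bcl2, Bcl2l1, Bax, Bak1, Bcl2l11, Bbc3, Pmaip1, Bid and Bad were followed in leukemia cells and in the bone marrow cells around them, with and without host IL-6. These 10 genes were taken by symbol, and all of them were present among the 15080 genes measured in tumor and the 13344 measured in stroma. They fall into 3 anti-apoptotic members (Mcl1, Bcl2l1, Bcl2), 2 multidomain effectors (Bax, Bak1) and 5 BH3-only members (Bcl2l11, Bbc3, Pmaip1, Bid, Bad). All 10 passed the filter on low values in both compartments, a mean normalized count over 10.

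The Bcl-2 family decides whether the outer membrane of the mitochondrion is opened, the step that commits most blood cells to apoptosis. BAX and BAK1 form the pore, MCL1, BCL-XL (the main product of Bcl2l1) and BCL2 hold them and the BH3-only proteins in check, and the BH3-only proteins carry stress signals to both. Neutrophils and B-cell precursors are known to depend on MCL1, maturing red cells on BCL-XL, and cytokines that act through STAT proteins are known to raise transcription of several anti-apoptotic members.

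B-ALL cells with BCR-ABL and without Arf, marked with mCherry, were injected (500000 per mouse) into C57BL/6J hosts aged 6 to 8 weeks that were either wild type (WT) or Il6-/- (IL-6 KO). Bone marrow of untreated mice was sorted on day 8 into live mCherry+ cells, called tumor, and mCherry- cells, called stroma, and 4 libraries were made in each group (WT tumor, IL-6 KO tumor, WT stroma and IL-6 KO stroma). The leukemia was 1 transplanted line in both hosts, so that WT and IL-6 KO name the host and not the tumor cells. The labels do not say that each library came from a separate mouse, and p-values therefore measure the spread between these libraries, which may be technical.

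Values are normalized counts, that is, transcript estimates scaled by the authors so that libraries of 1 compartment can be compared. The number of reads behind them is unknown, and their sums per library are not depths. These sums separated by host, at 38817792 to 44552085 in WT and 47267047 to 55592959 in IL-6 KO tumor, and in stroma at 8805689 to 17470735 for WT against 33973016 to 44191950.4 for IL-6 KO hosts. In stroma a single gene, Rn7s1, made up 34766678, 30258018, 34923464 and 3707689 of the IL-6 KO sums and 1689504 to 8746973 of the WT sums. Whether the sums of the remaining genes separate by host was not examined. Il6 itself was not analysed here and gives no check of the labels. The 12 B-lineage markers summed to between 136723 and 155474 in tumor libraries and to between 706 and 1920.1 in stroma libraries. In stroma the 13 erythroid markers analysed summed to between 90737 and 428927 and the 14 neutrophil markers to between 7957 and 34015, whereas the 5 mesenchymal and endothelial markers analysed summed to between 183 and 1662. Pdgfra, Lepr, Cxcl12 and Cdh5, which define marrow stromal and endothelial cells, were not analysed in stroma, and by these markers the compartment named stroma was mostly blood cells, although red cells had been lysed before the sort. In such bulk samples, fewer cells of a type and less RNA per cell cannot be told apart.

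The bases just upstream of Bax and Bid, the members whose expression was called different in tumor, are shown 5′ to 3′ from RefSeq on GRCm38.p6, at chr7:45466899-45467148 on the minus strand for Bax and at chr6:120916854-120917074 on the minus strand for Bid, with capitals for GC boxes (GGGCGG, either strand) and E-boxes (CACGTG).
Bax: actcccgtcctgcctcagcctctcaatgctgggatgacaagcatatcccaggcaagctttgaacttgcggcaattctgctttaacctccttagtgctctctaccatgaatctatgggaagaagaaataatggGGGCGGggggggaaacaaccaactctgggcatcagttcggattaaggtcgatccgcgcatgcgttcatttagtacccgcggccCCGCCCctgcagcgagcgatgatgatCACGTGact
Bid: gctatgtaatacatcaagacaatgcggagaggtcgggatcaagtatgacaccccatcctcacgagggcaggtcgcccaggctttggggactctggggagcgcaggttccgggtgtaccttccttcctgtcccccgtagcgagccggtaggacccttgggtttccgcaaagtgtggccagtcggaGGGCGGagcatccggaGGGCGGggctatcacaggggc
Both windows hold 2 GC boxes, and that of Bax ends close to an E-box. A RefSeq window was given for 9 of the members, 15 windows in all, and was searched over the 250 bases before the start. A GC box was in 10 of the 15 windows (of Bad, Bax, Bbc3, Bcl2, Bcl2l11, Bid and Mcl1) against 32.7% of all 32851 windows, and an E-box was in 2 of the 15 (Bax and Bbc3) against 6.02%. Several windows are other starts of the same gene, and some lie inside the annotated gene. They are therefore not independent, and no enrichment was tested. The STAT motif TTCNNNGAA, which reads the same on both strands, was in 0 of the 15 windows against 7.02% of all windows. A match says no more than that these letters are present.

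In tumor, 2 of the 10 members differed between IL-6 KO and WT hosts at an adjusted p under 0.05 (limma on log2 of the normalized count + 1, Benjamini-Hochberg adjustment over 14493 genes), and both, Bax and Bid, were higher in IL-6 KO hosts. Among all genes tested, 19.8% were called and 10.6% were called higher, so the members were called at about the rate of other genes. The unadjusted p was under 0.05 for 5 members (35.1% of all genes). Every IL-6 KO library lay above every WT library for 3 members, Mcl1, Bax and Bid (13.6% of all genes). The median log2 fold change of the members was 0.14, and that of all genes tested was -0.01.

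**Figure D1:**
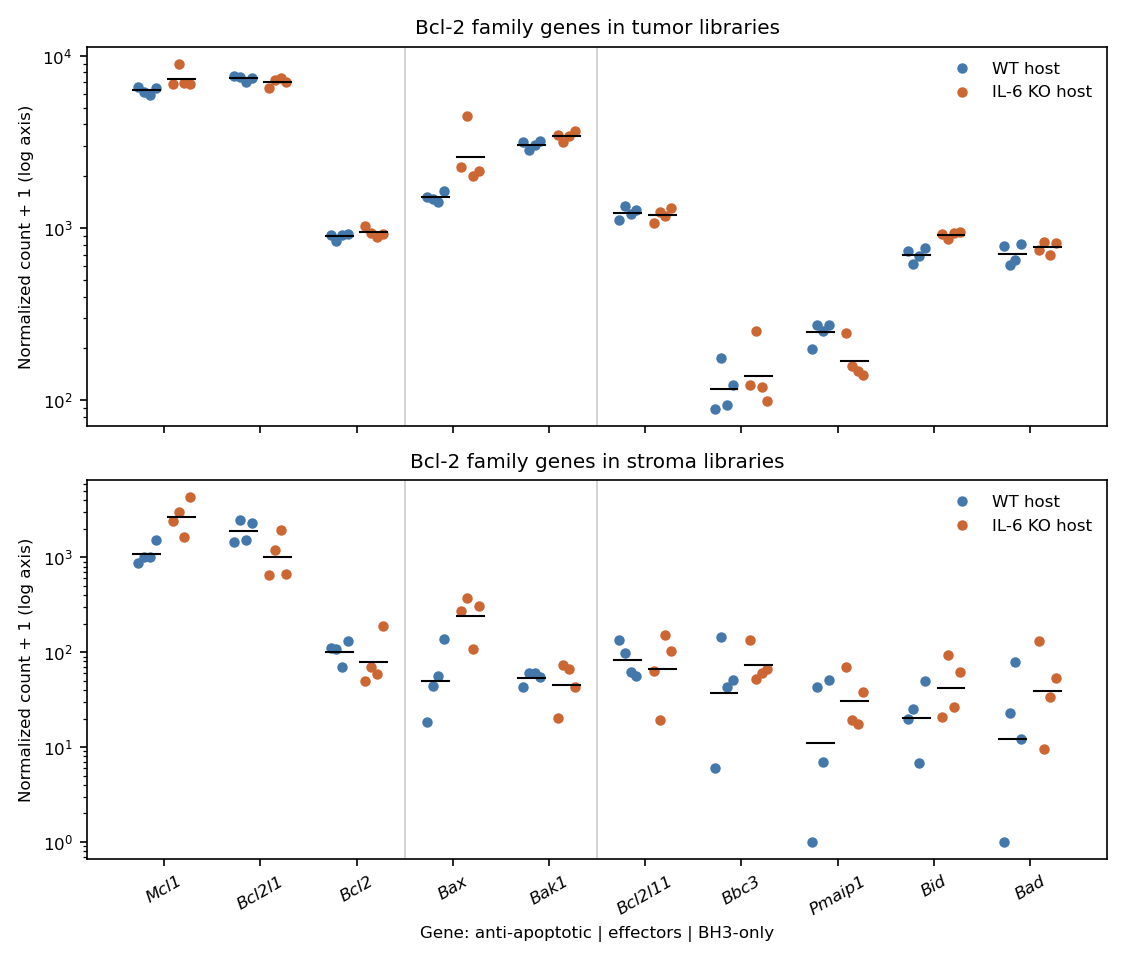
Normalized count + 1 (log axis) of the 10 members in each library, tumor above and stroma below, with WT hosts in blue, IL-6 KO hosts in orange and a line at the mean of the log values of the 4 libraries. Bax and Bid are higher in all 4 IL-6 KO tumor libraries, and in stroma Mcl1 is above every WT library in all 4 IL-6 KO libraries, while the low BH3-only members scatter widely.

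Among the effectors, Bax (chr7:45461697-45466898, minus strand, GENCODE vM21 on GRCm38) had the largest log2 fold change of any member in tumor with all libraries kept. Its normalized counts were 1505, 1462, 1418 and 1631 in WT tumor and 2269, 4451, 2004 and 2145 in IL-6 KO tumor. The groups did not overlap, and IL-6 KO library 2 stood far above the other 3. The mean of the 4 libraries was 1504 ± 91.8 (SD) for WT tumor against 2717 ± 1161 (SD) for IL-6 KO tumor, and the log2 fold change was 0.77 ± 0.22 (SE, limma adjusted p = 0.0352). Without IL-6 KO library 2 the log2 fold change was 0.51 and the limma adjusted p 0.00329, and Pmaip1 (-0.53) then had the larger change in size. The call was lost when any 1 of the WT libraries or IL-6 KO library 1 or 4 was left out (log2 fold changes of 0.75 to 0.86, limma adjusted p of 0.051 to 0.0825), and when each library's trends with GC content and transcript length were removed (0.54, limma adjusted p = 0.0667). The same library 2 held 7707828 normalized counts of Gm42418, a locus that overlaps ribosomal RNA and was chosen after its values were seen, against 2038390.1 to 2228531 in the other IL-6 KO tumor libraries, and its part in the Bax value was not tested. Exons of Gm45808 overlap those of Bax on the same strand, and the transcripts are near-identical over part of their length. Gm45808 was not among the genes measured, and the split of reads between it and Bax is uncertain.

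Bak1 (chr17:27019810-27029009, minus strand), the second pore-forming effector, varied far less. It had 3161, 2817, 3021 and 3209 normalized counts in WT tumor and between 3164 and 3649.8 in IL-6 KO tumor. The groups overlapped at their edges. Its log2 fold change was 0.16 ± 0.07 (SE, limma adjusted p = 0.135), and it was -0.05 when the trends with GC content and length were removed. Exons of Ggnbp1 overlap those of Bak1 on the opposite strand, and the strand setting used in quantification is not given in the sources used here.

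Bid (chr6:120891930-120916853, minus strand) encodes the BH3-only protein that caspase-8 cuts to link death receptors to mitochondria. It had 737, 613, 683 and 759.9 normalized counts in WT tumor and 922, 860.4, 935 and 941 in IL-6 KO tumor. All 4 IL-6 KO libraries were above all 4 WT libraries and lay close together. The mean of the 4 libraries was 698 ± 65.5 (SD) for WT tumor against 915 ± 37.0 (SD) for IL-6 KO tumor, and the log2 fold change was 0.39 ± 0.09 (SE, limma adjusted p = 0.0173). The limma adjusted p was 0.0506 without IL-6 KO library 1 and 0.0552 without IL-6 KO library 4. The 3′ end of Bid overlaps Bcl2l13 on the opposite strand, and Bcl2l13 was higher in IL-6 KO tumor as well (0.60 on the log2 scale, limma adjusted p = 0.00914), so reads from the overlap cannot be assigned with certainty.

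Pmaip1 (chr18:66458533-66465565, plus strand) encodes NOXA, the BH3-only protein that binds MCL1. Its normalized counts were 196, 274, 252 and 273 in WT tumor and 245, 156, 146 and 139 in IL-6 KO tumor. All 4 IL-6 KO libraries were below the WT mean, but library 1 reached into the WT range. The log2 fold change was -0.56 ± 0.20 (SE, limma adjusted p = 0.077), and without IL-6 KO library 1 it was -0.75 (limma adjusted p = 0.027).

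The other BH3-only members did not pass the test in tumor. Bcl2l11 (chr2:128126038-128162547), which encodes BIM, a binder of all anti-apoptotic members, had between 1106 and 1331 normalized counts in WT and between 1066 and 1310.5 in IL-6 KO tumor (log2 fold change -0.04, limma adjusted p = 0.809). Bad (chr19:6941861-6951899), whose product is held inactive by phosphorylation, had between 612 and 806 in WT and between 699 and 828 in IL-6 KO tumor (0.13, limma adjusted p = 0.464, and -0.08 without the trends with GC content and length). Bbc3 (chr7:16308393-16318205), which encodes PUMA, a p53 target, had between 88.3 and 176 in WT and between 98.4 and 251 in IL-6 KO tumor (0.25, limma adjusted p = 0.605). The highest Bbc3 value was again that of IL-6 KO library 2, and without that library the log2 fold change was -0.03.

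Of the anti-apoptotic members, Mcl1 (chr3:95658788-95663176, plus strand) had 6605, 6113, 5916 and 6526 normalized counts in WT tumor and 6860, 8919, 6935 and 6842 in IL-6 KO tumor. The groups did not overlap, with 3 IL-6 KO libraries within a narrow range and library 2 well above them. The log2 fold change of 0.22 ± 0.09 (SE) had an unadjusted p of 0.0372 and a limma adjusted p of 0.117. Bcl2l1 (chr2:152780668-152831728, minus strand) had 7586, 7526, 6995 and 7391 normalized counts in WT and 6466, 7193, 7393 and 7071 in IL-6 KO tumor, overlapping groups whose log2 fold change was -0.07 ± 0.06 (SE, limma adjusted p = 0.461). When the trends with GC content and length were removed, Bcl2l1 was called lower (-0.27, limma adjusted p = 0.0314). Bcl2 (chr1:106538178-106714274, minus strand) was among the most even members, with between 841 and 917 in WT and between 889.9 and 1022 in IL-6 KO tumor (0.07, limma adjusted p = 0.542).

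Genes listed as markers of other cell types also differed between the tumor groups, and which cells their transcripts came from was not tested. All 14 neutrophil markers had a positive log2 fold change in IL-6 KO tumor and 9 passed the test, with sums of 4722 to 5338 in WT and of 17095, 17793, 7263 and 15638 in IL-6 KO tumor. The list mixes granule genes such as Ltf and Ngp with others, and no stage of neutrophil maturation is read from it. Ngp and Ltf, which had the highest means of this list, were at up to 1095 and 1394 normalized counts in WT and up to 5242 and 4616 in IL-6 KO tumor. IL-6 KO library 3 had the lowest neutrophil sum of its group, though above every WT sum. Its Bax value of 2004 was the lowest of its group, and this value and its Bid value of 935 were above every WT library. IL-6 KO library 2, with the highest neutrophil sum, had the highest Bax value (4451) and the lowest Bid value (860.4) of its group. The 12 monocyte and macrophage markers summed to between 2044 and 2472 in WT and between 2570.5 and 3554 in IL-6 KO tumor. Of these, 6 had a positive log2 fold change and 6 a negative one, with a median of 0.00, and 4 were called higher. Mrc1 alone had 1331 to 1489.5 normalized counts in WT and 1227 to 1712 in IL-6 KO tumor. The 6 T and NK markers analysed summed to between 1679 and 1999 in WT and between 1203 and 1587 in IL-6 KO tumor. Of these, 2 were higher and 4 lower, with 1 called lower. Lck and Klrb1c made up most of the T and NK sum, and Cd3d, Cd3e, Cd3g and Cd8a were not analysed. Lck had 983 to 1287 normalized counts in WT and 501 to 973 in IL-6 KO tumor, and Klrb1c 444 to 649 and 419.8 to 618. The part of these markers in the results of Bax, Bid and Mcl1 was not tested.

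**Figure D2:**
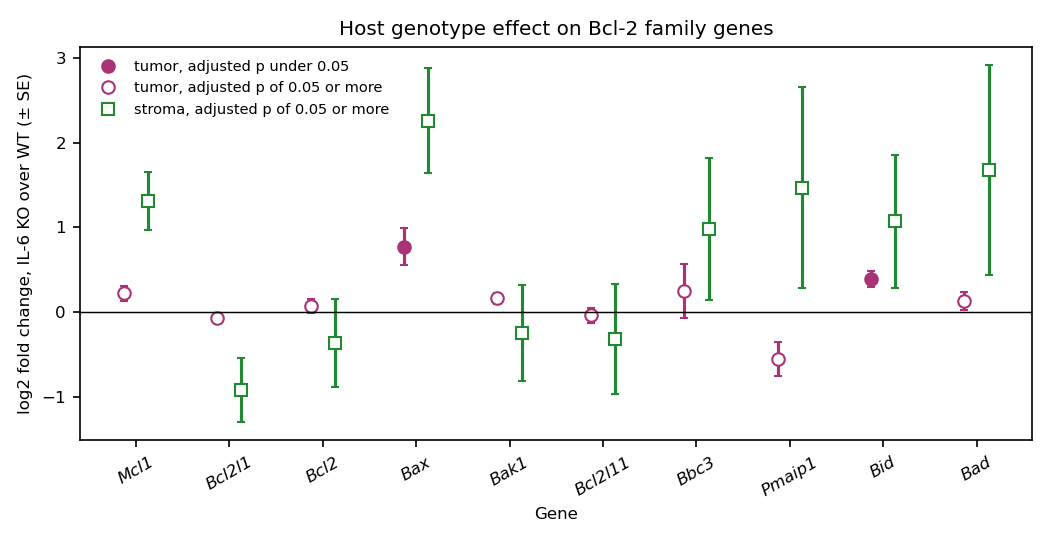
Log2 fold change of each member (IL-6 KO over WT, points, with the standard error as bars) in tumor (circles) and stroma (squares), filled where the limma adjusted p is under 0.05. Bax (0.77) and Bid (0.39) in tumor are filled, and the stroma estimates are larger in size with wider errors, such as 2.26 ± 0.62 for Bax.

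In stroma, 0 of the 10 members differed at an adjusted p under 0.05 (limma over 12202 genes), where 0.0082% of all genes were called. The unadjusted p was under 0.05 for 3 members, Mcl1, Bax and Bcl2l1, against 9.15% of all genes tested. Every IL-6 KO library lay above every WT library for 1 member, Mcl1 (2.54% of all genes). Residual spread was wider here, with a median standard deviation over genes of 0.86 on the log2 scale against 0.21 in tumor.

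Mcl1 in stroma had 866, 1014, 1009 and 1531 normalized counts in WT and 2434, 3030, 1635 and 4288 in IL-6 KO hosts. No IL-6 KO library overlapped the WT range, though library 3 came close to WT library 4. The log2 fold change was 1.31 ± 0.34 (SE, unadjusted p = 0.0021, limma adjusted p = 0.324), and it stayed between 1.09 and 1.55 when each library was left out. Bcl2l1 had 1461, 2457, 1543 and 2332 normalized counts in WT and 650.5, 1188, 1939 and 672 in IL-6 KO stroma. All 4 IL-6 KO values were below the WT mean, with library 3 inside the WT range. Its log2 fold change was -0.92 ± 0.38 (SE, unadjusted p = 0.0327, limma adjusted p = 0.501). Bcl2 had between 68.2 and 130.5 in WT and between 48.9 and 187 in IL-6 KO stroma, with no separation of the groups (-0.37, limma adjusted p = 0.859).

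Bax in stroma had 17.3, 43.0, 55.8 and 138 normalized counts in WT and 269, 369.6, 108 and 304 in IL-6 KO hosts. Library 3 was again the lowest of the IL-6 KO group and fell below WT library 4. The log2 fold change was 2.26 ± 0.62 (SE, unadjusted p = 0.00317, limma adjusted p = 0.331). Bak1 did not separate, with between 42.0 and 59.9 in WT and between 19.2 and 72.1 in IL-6 KO stroma (-0.25, limma adjusted p = 0.919, and 0.13 without IL-6 KO library 1).

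The BH3-only members were low in stroma and varied widely between libraries of the same group. Pmaip1 and Bad were listed at 0 in WT library 1, with WT medians of 24.1 and 16.6, against 16.3 to 69.1 and 8.56 to 129.7 in IL-6 KO stroma. Bid had between 5.8 and 48.4 in WT and between 20.0 and 91.9 in IL-6 KO stroma, Bbc3 between 5.01 and 143 and between 51.8 and 132, and Bcl2l11 between 54.8 and 135 and between 18.3 and 151. None of these 5 had an unadjusted p under 0.05 in limma, with adjusted p-values from 0.703 for Bid and Bad to 0.908 for Bcl2l11.

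Erythroid and neutrophil markers also varied between the stroma libraries. The erythroid sums in IL-6 KO stroma were 90737, 257460, 428927 and 94683 and the neutrophil sums 34015, 32879.8, 8227 and 28954, against 198576 to 246139 and 7957 to 15379.8 in WT stroma. IL-6 KO library 3, the one with the most erythroid and the least neutrophil signal, had the highest Bcl2l1 and the lowest Mcl1 and Bax of its group. Libraries 1 and 4, with the least erythroid signal, had the lowest Bcl2l1. Across all 8 libraries the match was incomplete. IL-6 KO library 2 had a higher erythroid sum than every WT library and a lower Bcl2l1, and IL-6 KO library 3 had a lower neutrophil sum than 3 of the 4 WT libraries and a higher Mcl1 than all of them. Rn7s1, a 7SL RNA chosen after its values were seen, had 1689504 to 8746973 normalized counts in WT stroma, and the IL-6 KO libraries had 34766678, 30258018, 34923464 and 3707689. The part of these cell types and of Rn7s1 in the differences of Mcl1, Bcl2l1 and Bax was not tested.

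**Figure D3:**
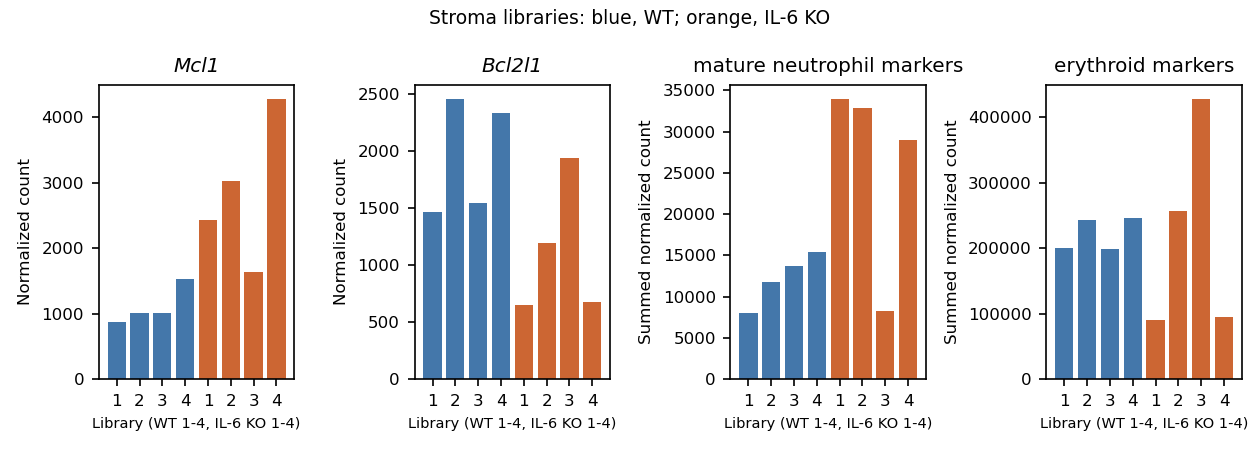
Normalized counts of Mcl1 and Bcl2l1 and summed normalized counts of the neutrophil (titled mature neutrophil) and erythroid markers in the 8 stroma libraries (bars, blue for WT 1 to 4 and orange for IL-6 KO 1 to 4). IL-6 KO library 3 has the lowest Mcl1 (1635) and neutrophil sum (8227) and the highest Bcl2l1 (1939) and erythroid sum (428927) of its group.

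The genotype effects of the compartments were set against each other in 1 fit over all 16 libraries, on the 10887 genes with a mean over 10 in both. Both fractions were sorted from marrow, and the labels do not say which tumor and stroma libraries came from the same mouse. The fit treats all 16 libraries as independent, so its standard errors and p-values leave out any such pairing. The tables were scaled separately, and only differences between genotypes within a table enter this comparison. The difference of the effects was past an adjusted p of 0.05 for 0 of the 10 members (limma, 0.00919% of all genes) and had an unadjusted p under 0.05 for 2 (8.76% of all genes). These were Mcl1, whose log2 fold change was higher in stroma than in tumor by 1.09 (standard error 0.39, unadjusted p = 0.0122, limma adjusted p = 0.43), and Bcl2l1, whose stroma effect minus its tumor effect was -0.85 (standard error 0.35, unadjusted p = 0.0259, limma adjusted p = 0.501). For Bax the difference was 1.48 (standard error 0.87, limma adjusted p = 0.662) and for Pmaip1 2.03 (standard error 1.17, limma adjusted p = 0.656).

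Levels of different members were compared per kilobase of the longest coding transcript, as shares of the 10 genes within a library, which do not depend on how libraries were scaled. In WT tumor Bcl2l1 held 33.2% ± 1.1 (SD, n = 4), Mcl1 21.2% ± 0.343, Bax 15.8% ± 0.447 and Bak1 14.8% ± 0.602, followed by Bad, Bid, Bcl2l11, Bcl2, Pmaip1 and Bbc3 at 5.35% or less. The per-kilobase ranges of neighbours in this order overlapped for Bax and Bak1 and for Pmaip1 and Bbc3. In IL-6 KO tumor the share of Bax was 23.5% ± 6.38 (SD, n = 4) and that of Bcl2l1 27.0% ± 3.19, and the ranges of Bcl2l1, Bax and Mcl1 overlapped. The share of Mcl1, at 20.6% to 21.3%, overlapped that in WT tumor.

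The order was different in stroma. In WT stroma Bcl2l1 held 62.6%, 65.0%, 56.1% and 56.5% and Mcl1 27.9%, 20.2%, 27.5% and 27.8% of the family, so that these 2 genes made up most of it in every library. In IL-6 KO stroma Mcl1 held 49.8%, 48.9%, 32.6% and 63.7% and Bcl2l1 17.7%, 25.5%, 51.4% and 13.3%. Mcl1 was the most abundant member per kilobase in IL-6 KO libraries 1, 2 and 4, and Bcl2l1 in library 3 and in all 4 WT stroma libraries. Bax was the next member by its mean in both groups, at 1.73% to 7.82% in WT and 6.69% to 18.5% in IL-6 KO stroma. Below it, neighbours in the order overlapped in both stroma groups.

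**Figure D4:**
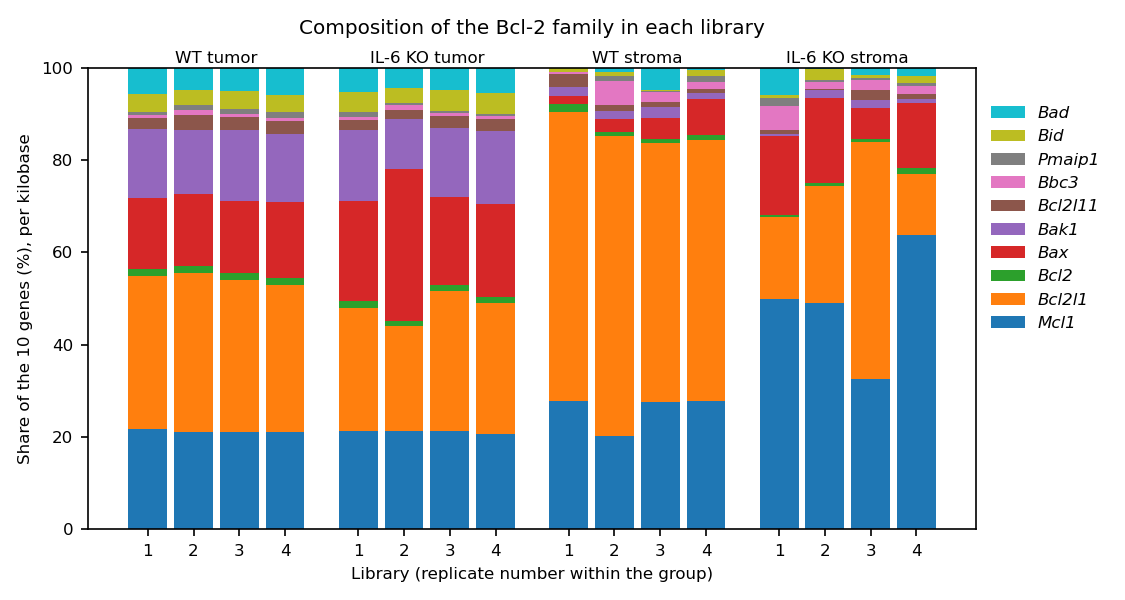
Share of each member among the 10 genes (%, per kilobase of the longest coding transcript) in each of the 16 libraries, stacked in 1 bar per library and grouped by host and compartment. In tumor the Bax segment is larger (19.2% to 32.9%) and the Bcl2l1 segment smaller (22.8% to 30.3%) in every IL-6 KO library than in every WT library, and in stroma the Mcl1 segment is the larger one in IL-6 KO libraries 1, 2 and 4.

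By class, the anti-apoptotic members together held 54.4% to 57.0% of the per-kilobase sum in WT tumor and 45.1% to 52.9% in IL-6 KO tumor. The effectors held 29.6% to 31.3% and 34.1% to 43.7%, and the BH3-only members 13.3% to 14.3% and 11.2% to 13.7%. Class shares of the anti-apoptotic members and the effectors did not overlap between the tumor groups. The share of 1 class falls where another class rises, so a lower share need not mean a lower level. The mean per kilobase was 1367 in WT and 2470.3 in IL-6 KO tumor for Bax, 2872 and 2738 for Bcl2l1, and 1840.3 and 2162 for Mcl1. In stroma the anti-apoptotic class held 84.5% to 92.1% in WT and 68.1% to 84.5% in IL-6 KO hosts, and the effectors 3.67% to 9.21% and 8.55% to 20.2%. These shares restate the values above and were not tested.

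The ratio of 2 members within a library shows their balance without any scaling, and only its change between libraries is read, since gene length shifts its level. The log2 ratio of Mcl1 to Bcl2l1 was -0.20, -0.30, -0.24 and -0.18 in WT tumor and 0.09, 0.31, -0.09 and -0.05 in IL-6 KO tumor. In stroma it was -0.75, -1.28, -0.61 and -0.61 in WT and 1.90, 1.35, -0.25 and 2.67 in IL-6 KO hosts. In each compartment every IL-6 KO library had a higher ratio than every WT library, which was also so for the values of Mcl1 alone. The ratio of Bcl2l1 to Bcl2 overlapped between the hosts in both compartments. The log2 ratio of Bax to Bak1 was between -1.09 and -0.95 in WT tumor and -0.61, 0.49, -0.76 and -0.77 in IL-6 KO tumor, again without overlap. In stroma the Bax to Bak1 ratio was -1.23, -0.47, -0.09 and 1.36 in WT and 3.74, 2.34, 0.72 and 2.82 in IL-6 KO hosts, where WT library 4 lay above IL-6 KO library 3. All of these ratios restate the values above and were not tested, and the share of all gene pairs without overlap was not computed.

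**Figure D5:**
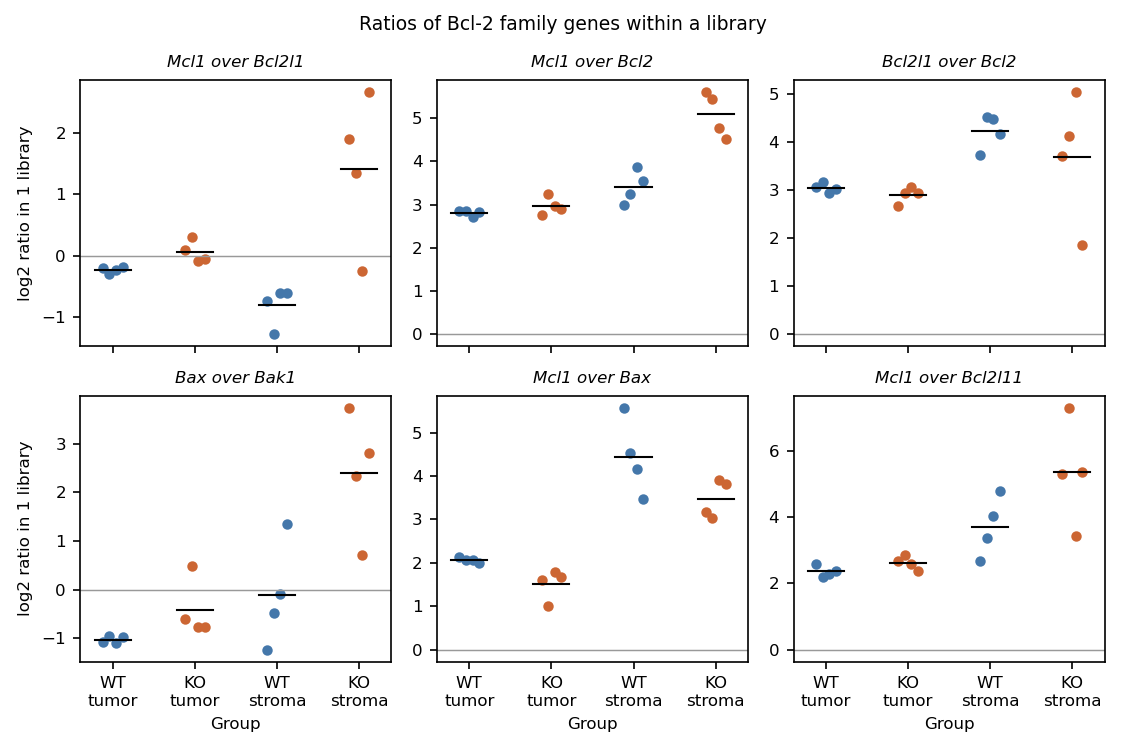
Log2 ratio of 6 pairs of members in each library (points, blue for WT and orange for IL-6 KO hosts, a line at the mean of 4 libraries) for the 4 groups. The ratio of Mcl1 to Bcl2l1 is higher in every IL-6 KO library than in every WT library of the same compartment, with IL-6 KO stroma spread from -0.25 to 2.67.

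The pathway around the members was described with 56 other genes in 5 lists, of which 49 were tested in tumor and 42 in stroma. In tumor 10 of the 49 passed the test, 7 higher and 3 lower in IL-6 KO hosts, at a median log2 fold change of 0.07 against -0.01 over all genes. The share called was close to that of all genes, 10.6% higher and 9.16% lower. In stroma 0 of the 42 passed and 1 had an unadjusted p under 0.05.

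Of 9 other Bcl-2 family genes tested in tumor, 2 were higher and 1 lower. Bok, a BAX-like effector, had 995 ± 224 (SD, n = 4) normalized counts for WT against 1657 ± 399 in IL-6 KO tumor (log2 fold change 0.73, limma adjusted p = 0.0321). Bnip3l, a mitophagy receptor with a BH3-like stretch and 1 near-identical copy among the genes measured, fell from 1968 ± 376 to 1309.7 ± 220.4 (-0.59, limma adjusted p = 0.0299). Bcl2l13 rose from 2298 ± 305 to 3468 ± 399, with the overlap with Bid given above.

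Downstream of the mitochondrion, 2 of 13 apoptosome and caspase genes passed. Aifm1, a mitochondrial flavoprotein, rose from 1649.9 ± 151 (SD, n = 4) in WT tumor to 2345 ± 400.0 in IL-6 KO tumor (0.49, limma adjusted p = 0.0287). Among the 7 inhibitors of apoptosis and their antagonists, Birc6, a large ubiquitin ligase, fell from 24096 ± 1341 to 14570.1 ± 2535 (-0.74, limma adjusted p = 0.00308). Birc5, which encodes survivin and also acts in cell division, rose from 2896 ± 179 to 3631 ± 277 (0.32, limma adjusted p = 0.0191). Birc6 had between 22905 and 25777 normalized counts in WT and between 12316 and 18195 in IL-6 KO tumor. Every IL-6 KO library lay above every WT library for Birc5, as for 13.6% of all genes tested in tumor.

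Of 8 death receptor genes tested in tumor, Tnfrsf1a, the TNF receptor, passed, with 13.3 to 32.3 normalized counts in WT and 39.0 to 116 in IL-6 KO tumor (2.09, limma adjusted p = 0.00867). The neutrophil and monocyte marker sums given above were higher in the same libraries, and their part in this value was not tested. Of 12 regulators of Bcl-2 family genes, Stat5a and Stat5b passed, the transcription factors downstream of BCR-ABL and cytokine receptors that are known to act on Bcl2l1 and Mcl1. Stat5a had 1204 ± 277 (SD, n = 4) normalized counts in WT and 1799.9 ± 221 in IL-6 KO tumor (0.60, limma adjusted p = 0.0343), and Stat5b 1696 ± 68.8 and 2009 ± 114 (0.24, limma adjusted p = 0.0388). These are near-identical over part of their transcripts, and the split of reads between them is uncertain. Exons of Stat5a also overlap Stat3 on the opposite strand.

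In stroma the gene with the smallest p in each list did not pass. Casp9, the initiator caspase of the apoptosome, had between 37.0 and 92.1 normalized counts in WT and between 91.6 and 217 in IL-6 KO stroma (log2 fold change 1.11, limma adjusted p = 0.522). Fadd, the death receptor adaptor, had between 31.8 and 105 in WT and between 131 and 211 in IL-6 KO stroma (1.02, limma adjusted p = 0.554), and Ddit3, which encodes CHOP and is known to raise Bcl2l11 and Bbc3 under stress, between 78.8 and 142 and between 40.9 and 74.5 (-0.87, limma adjusted p = 0.593). Every IL-6 KO library lay above every WT library for Fadd, as for 2.54% of all genes tested in stroma. Birc5 and Bcl2l13 had log2 fold changes of -0.64 (limma adjusted p = 0.567) and -0.66 (limma adjusted p = 0.636).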

How the data were processed

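RNA of sorted mCherry+ (tumor) and mCherry- (stroma) marrow cells was measured in 16 libraries, 4 for each host genotype and compartment, grouped by their labels. Per the labels, a directional kit that removes ribosomal RNA was used. The authors quantified transcripts with salmon 1.3.0, with GC and sequence bias corrections on mm10, and scaled the estimated counts by DESeq2 1.28.1, separately for tumor and stroma. The deposited values are these normalized counts, a scaled signal from which whole reads could not be recovered, so the depth is unknown and no counting interval was computed. The authors also deposited their own fold changes and p-values for each compartment, which were not used.

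The normalized counts were tested as log2(normalized count + 1) with limma 3.58.1 in R 4.3.3 (variance trend, genotype as the only term, genes with a mean over 10 in the table, two-sided, Benjamini-Hochberg adjustment, threshold 0.05). A fold change on this scale understates the change of low genes. The compartments were compared in 1 fit of 16 libraries with weights per compartment. The test was tried on simulated data first, with 200 genes changed by 2 on the log2 scale in each compartment. It recovered 167 of them in tumor and 46 in stroma, so most changes of that size would be missed in stroma. Symbols, positions and lengths were those of GENCODE vM21 (GRCm38), which held 15069 of 15080 tumor and 13338 of 13344 stroma identifiers. Near-identical copies were sought by BLAST 2.17.0 (at least 97% identity over at least 150 nucleotides). Tables were summarised with Python 3.11.15, pandas 2.3.3 and matplotlib 3.10.9.

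The members and gene lists were chosen with earlier results of these data known. Named genes were the 10 members and, from each other list and compartment, up to 4 genes with the smallest p among those called, or else the 1 with the smallest p. From each marker list, up to 2 genes with the highest mean could be named. The result of 1 gene that this rule gives is not reported here. The alternatives were pseudocounts of 0.5 and 5, no filter, a mean over 50, median centring, quantile normalization, array weights, a block for the replicate number and each library left out. The removal of trends with GC content and transcript length (lowess, span 0.3) was chosen after seeing the data. Count models of DESeq2 and edgeR were not run, since they need whole reads.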

Additional observations from a re-analysis of the deposited data

Results flagged for a closer look

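In groups of 4 libraries, 6 values of members stood apart from the other 3 by Dixon's ratio of the gap to the range. Of the 40 groups of 4 examined, chance flags about 1 in 20. Of the 6 values, 3 were in IL-6 KO tumor library 2, with normalized counts of 8919 for Mcl1, 4451 for Bax and 251 for Bbc3, each the highest of its group. Pmaip1 was highest in IL-6 KO tumor library 1, at 245. Bcl2 was lowest in WT tumor library 2, at 841, and highest in IL-6 KO stroma library 4, at 187. No member's genotype effect differed between tumor and stroma at an adjusted p under 0.05 (limma), and 2 did at an unadjusted p under 0.05.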

How the results depend on the processing

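With all libraries kept, Bid was called in tumor under all 9 alternatives (log2 fold change 0.32 to 0.40) and Bax under 8 of 9 (0.54 to 0.78), the exception being the removal of trends with GC content and length. That removal gave 1837 genes called in tumor against 2870 and 2 in stroma against 1, called Bcl2l1 (-0.27, limma adjusted p = 0.0314), and turned the direction of Bak1 (-0.05), Bbc3 (-0.03) and Bad (-0.08) in tumor. Array weights gave 4 genes called in stroma, and 4153 genes and 3 members in tumor, with Bak1 added (0.19, limma adjusted p = 0.0415). The cause was not tested. With each library left out, 1569 to 3327 genes, 0 to 2 members and 4 to 10 of the other apoptosis genes were called in tumor, and 1 to 3 genes, no member and none of the other apoptosis genes in stroma. Bid alone was called without any 1 of the WT tumor libraries, Pmaip1 alone without IL-6 KO tumor library 1, and no member without IL-6 KO tumor library 4. The direction turned for Bcl2l11 in tumor without WT library 2 (0.00) or IL-6 KO library 1 (0.02, range -0.09 to 0.02), Bbc3 in tumor without IL-6 KO library 2 (-0.03, range up to 0.46), Bak1 in stroma without IL-6 KO library 1 (0.13, range from -0.48) and Bcl2l11 in stroma without IL-6 KO library 2 (0.27, range from -0.72).

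Within a compartment, WT and IL-6 KO libraries of the same replicate number shared little deviation. Correlations over genes were -0.02 to 0.00 in tumor and -0.03 to 0.13 in stroma. Mean correlations with the other numbers were 0.00 to 0.01 in tumor and -0.04 to 0.01 in stroma. No WT library was closest to the IL-6 KO library of its own number. Tumor and stroma libraries of the same number were not compared in this way. With the replicate number as a block, 2230 genes, 2 members and 9 other apoptosis genes were called in tumor, and 1, 0 and 0 in stroma, with 0 members in the interaction. A mean over 50 leaves Pmaip1, Bid and Bad untested in stroma.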

Other observations

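The log2 ratio of Mcl1 to Bax within a library was 2.13, 2.06, 2.06 and 2.00 in WT tumor and 1.60, 1.00, 1.79 and 1.67 in IL-6 KO tumor, lower in all 4 IL-6 KO libraries. In stroma the ratio of Mcl1 to Bax was 5.57, 4.53, 4.15 and 3.46 in WT and 3.17, 3.03, 3.91 and 3.81 in IL-6 KO hosts, with overlap. The ratio of Mcl1 to Bcl2l11 was between 2.20 and 2.58 in WT tumor and between 2.38 and 2.84 in IL-6 KO tumor, and in stroma between 2.67 and 4.78 in WT and between 3.42 and 7.29 in IL-6 KO hosts. The ratio of Mcl1 to Bcl2 separated the stroma groups, at 2.98 to 3.87 in WT and 4.52 to 5.61 in IL-6 KO hosts. These ratios were read after the values of their members were seen and were not tested.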
